A study of Oryza sativa with 16 samples.

Results

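PSY2 and PSY3 encode phytoene synthases and were followed across 4 groups of rice leaf. They were read through all probe sets that the platform annotation, updated through the NCBI gene identifier, assigns by symbol or alias to either gene. This gave 2 probe sets, 1 for PSY2 (LOC4352846, chromosome 12) and 1 for PSY3 (LOC4347813, chromosome 9), out of 57194 probe sets and 17905 named genes measured. Both genes were chosen by their log2 difference between the parental varieties. For PSY2 and PSY3 every value that involves a parent is therefore a description without a test, and only the bulks are tested. Other genes are tested in the bulks and in the parents.

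Phytoene synthase joins a pair of geranylgeranyl diphosphate molecules into phytoene, the entry step of carotenoid synthesis and the one that usually limits its flux. Carotenoids protect the photosynthetic apparatus and are the source of abscisic acid and strigolactones. Rice has 3 phytoene synthase genes. PSY1 and PSY2 are known as the light-responsive genes of green tissue, and PSY3 is known for its response to salt and drought in roots, where it is tied to abscisic acid formation.

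The aromatic bulk combined 6 highly aromatic recombinant inbred lines. Another 6 lines without aroma made up the non-aromatic bulk. Their parents were the basmati variety Pusa 1121, which is aromatic, and the variety Pusa 1342, which is not. All plants were grown untreated in the field, and healthy leaves were taken 25 days after transplanting. Each group held 4 Affymetrix rice arrays labelled as biological replicates. A bulk reports the mixture of its lines, not the spread among them, and nothing in the labels shows separate pools or plants, so a p-value here covers only array-to-array spread within a group, some or all of which could be technical.

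Intensities are linear values per probe set in arbitrary units, made equal in distribution across the 16 arrays by the authors, with a median of 64.2. Arrays of 1 group correlated at r from 0.914 to 0.934 across probe sets, and arrays of different groups at 0.882 to 0.906. Of the leaf markers, 5 of 5 were bright, with mean intensities from 3923 to 44164. They were not all level between groups. PORA and PORB were called higher in the aromatic bulk, by 0.44 and 0.24 on the log2 scale. In Pusa 1121 RBCS and PORB were called higher (log2 0.44 and 0.35) and RCA and PORA lower (-0.42 and -1.25). CAB2R passed in neither pair. Among 10 floral markers 5 had a mean under 50, as did 4 of 8 seed and 2 of 7 root markers, and none was at 0. The seed markers GLB and GLUA2 had means of 3493 and 1235. No seed marker was called in the bulks, and GBSSI was the 1 called in the parents. It was higher in Pusa 1121, at 332 against 71.8 in Pusa 1342 on average (log2 2.23). The summed floral markers lay between 1081 and 1277 in the aromatic bulk and between 1512 and 1754 in the non-aromatic bulk, with 1407 to 1643 in Pusa 1121 and 3679 to 4128 in Pusa 1342. Most of that sum came from MADS16, which averaged 731 in the aromatic bulk and 1193 in its non-aromatic counterpart, and 1055 in Pusa 1121 against 3191 in Pusa 1342. MADS16 was the 1 floral marker of 10 called in the bulks, as lower, and MADS16 and MADS2 were the 2 called in the parents, both lower in Pusa 1121, while MADS4 and DL had higher means there without passing. The summed root markers were 11508 to 12073 in the aromatic bulk and 11327 to 12181 in its non-aromatic counterpart, and 10143 to 10668 in Pusa 1121 against 7835 to 8402 in Pusa 1342. That sum was mostly NAAT1, which was called higher in Pusa 1121 (8752 against 5111 in Pusa 1342). The root markers LSI1, a silicon channel gene, and AMT1;2, an ammonium transporter gene, were called lower on the aromatic side of both pairs, as PSY3 was in the bulks. LSI1 differed by -0.77 in the bulks and -0.53 in the parents, and AMT1;2 by -0.83 and -1.95, on the log2 scale. Of the 7 root markers, IRT1, LSI2, SHR1 and SCR1 passed in neither pair. NAAT1 did not pass in the bulks (log2 0.19, limma adjusted p = 0.0631). The part of these markers in the differences below was not tested.

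PSY2 did not pass the test between the bulks. Its intensity was 8357, 9804, 8645 and 8559 on the 4 arrays of the aromatic bulk. The non-aromatic bulk gave 8684, 8626, 8531 and 8524. The arrays of the groups overlapped, and 1 array of the aromatic bulk, replicate 2, lay above the remaining bulk arrays. Means were 8841 ± 653 in the aromatic bulk and 8591 ± 77.6 in the non-aromatic bulk (SD, n = 4 each). The log2 difference was 0.04 (SE 0.08, limma adjusted p = 0.818), with a 95% interval from -0.13 to 0.21. This interval spans ratios of the aromatic to the non-aromatic bulk from 0.911 to 1.16.

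PSY3 was lower in the aromatic bulk. On its 4 arrays the gene had 413.9, 448.0, 560.7 and 555.6, while the non-aromatic bulk gave 1033, 1066, 1151 and 1157. No array of one bulk reached the range of the other. Means were 495 ± 74.7 in the aromatic bulk, compared with 1102 ± 62.0 in the non-aromatic bulk (SD, n = 4 each). PSY3 thus fell by 1.16 on the log2 scale (SE 0.137, limma adjusted p = 3.54e-05), a ratio of 0.446 with a 95% interval from 0.363 to 0.548. The exact two-sided permutation test over the 8 arrays gave an unadjusted p = 0.0286, the smallest value that 70 splits allow. Every probe set without overlap between the bulks reaches that value. Over 16 alternative settings, this test among them, p lay between 9.9e-08 and that permutation value. All were limma adjusted p values except that of the permutation test. So 1 of the 2 genes was called in the bulks. In the same comparison 18.6% of all probe sets were called in either direction and 9.1% were called lower. Of all named genes, each read by 1 probe set, 32.8% were called and 16.3% were called lower. All 4 aromatic arrays lay below all 4 non-aromatic ones in 11.5% of probe sets. In bulk leaf RNA, fewer cells of a type and less RNA per cell cannot be told apart.

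**Figure D1:**
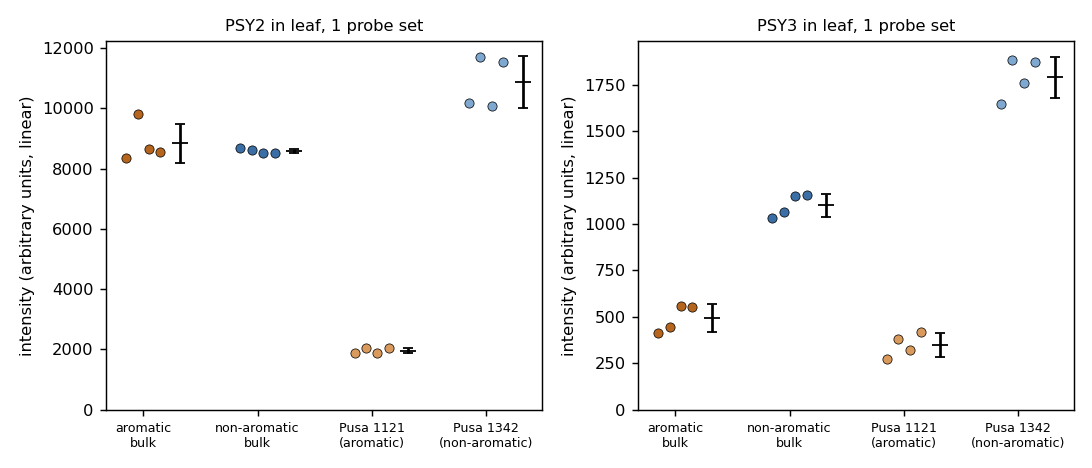
Intensity of PSY2 (left) and PSY3 (right) on each of 16 arrays, by group, on linear axes from 0; points are arrays, and the bar beside them is the mean with 1 SD (n = 4). PSY2 stands low in Pusa 1121 alone (1870 to 2045), while PSY3 is low in the aromatic bulk (413.9 to 560.7) and in Pusa 1121 (273.3 to 418.1).

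In the parents both genes had lower values on the aromatic side, which is the difference for which they were chosen. PSY2 had 1895, 2044, 1870 and 2045 in Pusa 1121, against 10181, 11695, 10083 and 11532 in Pusa 1342. Its means were 1963 ± 93.9 in Pusa 1121 and 10873 ± 859 in Pusa 1342 (SD, n = 4 each), a log2 difference of -2.47. PSY3 had 273.3, 380.3, 319.1 and 418.1 in Pusa 1121, against 1648, 1883, 1757 and 1874 in Pusa 1342. PSY3 averaged 348 ± 64.2 in Pusa 1121 and 1790 ± 111 in Pusa 1342 (SD, n = 4 each), a log2 difference of -2.38. For both genes the varieties did not overlap, an order that 15.5% of all probe sets showed in this direction. In the parents 25.8% of all probe sets were called in either direction and 13.4% were called lower in Pusa 1121. Of all named genes, each read by 1 probe set, 45.3% were called and 22.8% were called lower there. Each gene is read by 1 probe set, so no other probe set checks these values.

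Set between the parents, the bulks took other places for each gene. For PSY2 the aromatic bulk stood at 87.9% and the non-aromatic bulk at 86.4% of the distance from Pusa 1121 to Pusa 1342 on the log2 scale. Both bulks were therefore close to the non-aromatic parent, at 0.94 and 0.90 log2 units above the mean of the parents. Every array of both bulks lay above every Pusa 1121 array and below every Pusa 1342 array. For PSY3 the aromatic bulk stood at 21.6% and the non-aromatic bulk at 70.6% of that distance, at -0.68 and 0.49 log2 units from the mean of the parents. PSY3 was lowest in Pusa 1121, then came the aromatic bulk, the non-aromatic bulk and Pusa 1342. The neighbours Pusa 1121 and aromatic bulk overlapped by a narrow margin, the highest Pusa 1121 array being 418.1 and the lowest aromatic-bulk array 413.9, and the other neighbours did not overlap.

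Differences between a bulk and a parent give the same picture in log2 units, as descriptions. PSY2 differed by 2.17 between the aromatic bulk and Pusa 1121, and by -0.34 between the non-aromatic bulk and Pusa 1342. PSY3 differed by 0.51 and -0.70 in those comparisons. The parental minus the bulk difference was -2.51 for PSY2 and -1.21 for PSY3, with no test because the parental values chose the genes.

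PSY1 (LOC4342137, chromosome 6), the third phytoene synthase gene of rice, went the other way from PSY3 in the bulks. Its brightest probe set had 10632, 11195, 11309 and 10784 in the aromatic bulk, against 8304, 8199, 8485 and 8179 in the non-aromatic bulk, without overlap. The means were 10980 ± 323 in the aromatic bulk and 8292 ± 140 in the non-aromatic bulk (SD, n = 4 each), and PSY1 rose by a log2 difference of 0.40 (SE 0.0623, limma adjusted p = 3.59e-04). In all probe sets 9.49% were called higher in this comparison, and 12.0% had all aromatic arrays above all non-aromatic ones. Of all named genes, each read by 1 probe set, 16.5% were called higher. Each of the 3 PSY1 probe sets rose, the other two by 0.46 (adjusted p = 0.00356) and 0.89 (adjusted p = 0.024, limma). The last of these was the dimmest, and 1 aromatic array, replicate 3, stood apart at 436.9 while the remaining arrays ran from 241.1 to 261.1.

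Between the parents no PSY1 probe set passed. The brightest had 9083 ± 373 in Pusa 1121 and 8896 ± 182 in Pusa 1342 (SD, n = 4 each), a log2 difference of 0.03 with a 95% interval from -0.11 to 0.16 (limma adjusted p = 0.815). The others had -0.17 (adjusted p = 0.248, limma) and -0.04 (adjusted p = 0.942). The parental values of all 3 probe sets overlapped. On the brightest probe set the parental difference was lower than the bulk difference by 0.38 log2 units (-0.38, limma adjusted p = 0.00741), a test that 33.8% of all genes passed.

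**Figure D2:**
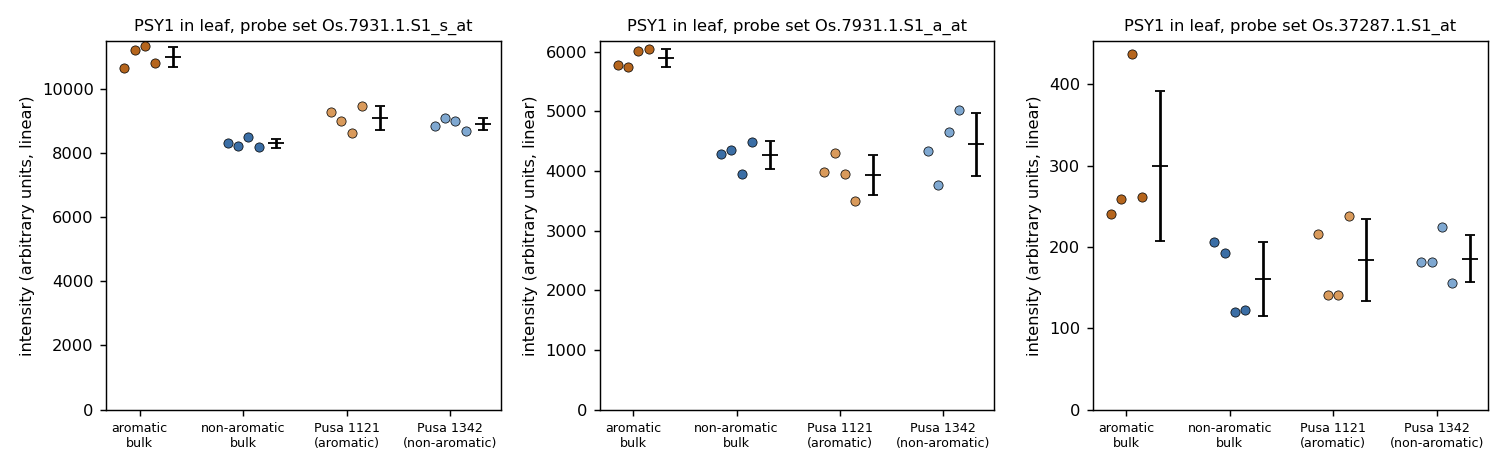
Intensity of the 3 probe sets of PSY1 on each of 16 arrays, by group, on linear axes from 0; points are arrays, and the bar beside them is the mean with 1 SD (n = 4). In every panel the aromatic bulk lies above the non-aromatic bulk, and the Pusa 1121 and Pusa 1342 arrays overlap.

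The genes around phytoene synthase were read from a list of carotenoid, abscisic acid and geranylgeranyl diphosphate genes. Of these, 18 besides PSY2 and PSY3 could be matched by name. Among those without a match were ZDS, CRTISO, LCYB, LCYE and the BCH genes, so these carotenoid steps were not read. In the bulks 6 of the 18 were higher, 3 were lower and 9 did not pass. Over all 17905 genes 16.5% were higher and 16.3% lower. The median log2 difference was 0.21 in the list and -0.01 over all genes. In the parents 2 of the 18 were higher, 10 were lower and 6 did not pass, against 22.4% higher and 22.8% lower over all genes. The median there was -0.43 in the list and -0.01 over all genes.

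Upstream of phytoene synthase, the plastid MEP pathway makes the isoprenoid units. In the parents 4 of its 6 measured genes were lower in Pusa 1121. ISPG, which encodes the next to last enzyme of this pathway, had 10652 ± 183 in Pusa 1121 against 20636 ± 579 in Pusa 1342 (SD, n = 4 each, log2 -0.95, limma adjusted p = 2.29e-08). ISPH, for the last enzyme, fell by 0.77, DXR, for the second enzyme, by 0.78, and CLA1, also listed as DXPS and encoding the entry enzyme, by 0.71 on the log2 scale. MCS, also listed as ISPF, went the other way and rose by 0.43 (adjusted p = 0.00215). ISPE did not pass, with a log2 difference of 0.05 (adjusted p = 0.841). A dim second CLA1 probe set pointed the other way from the first without passing. It averaged 106 in Pusa 1121 and 69.0 in Pusa 1342 (limma adjusted p = 0.494).

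In the bulks the same 6 genes split. CLA1 had 5074 ± 66.0 in the aromatic bulk, compared with 4014 ± 163 in the non-aromatic bulk (SD, n = 4 each), and rose by 0.34 (limma adjusted p = 0.00683). The dim second CLA1 probe set had 161 ± 38.6 in the aromatic bulk, compared with 18.6 ± 16.4 in the non-aromatic bulk. All 4 non-aromatic arrays of that probe set lay under an intensity of 50, so no size of difference is given for it. MCS rose by 0.31 and ISPE by 0.39, while ISPG fell by 0.23 (adjusted p = 0.0122). With only the bulks in the fit, ISPG and MCS no longer passed (adjusted p = 0.0837 and 0.0959). DXR and ISPH had log2 differences of -0.10 and -0.15 without passing, though ISPH did among probe sets with a mean of at least 50 (adjusted p = 0.0165). The ISPE call was lost without any 1 of 7 of the 8 bulk arrays, all but replicate 4 of the non-aromatic bulk (adjusted p from 0.0583 to 0.0952). The MCS call was lost without any 1 of 5 of them, replicates 1 and 4 of the aromatic and 2, 3 and 4 of the non-aromatic bulk (adjusted p from 0.0547 to 0.0779).

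Downstream, PDS encodes phytoene desaturase, which acts on the product of phytoene synthase. It was higher on the aromatic side of both pairs, opposite to PSY3. In the bulks PDS averaged 5123 ± 282 with aroma and 3784 ± 333 without (SD, n = 4 each, log2 0.44, limma adjusted p = 0.00119). In the parents it had 6255 ± 237 in Pusa 1121 and 4202 ± 105 in Pusa 1342 (log2 0.57, adjusted p = 6.34e-05). ZEP, zeaxanthin epoxidase of the xanthophyll cycle, passed in neither pair, with log2 -0.14 in the bulks (adjusted p = 0.192) and -0.04 in the parents (adjusted p = 0.792).

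The 2 matched genes of abscisic acid breakdown were lower in the aromatic bulk, as PSY3 was. The listed genes NCED, AAO3 and ABA3 of abscisic acid synthesis had no match, nor had ABA8OX3, so they were not read. ABA8OX1 and ABA8OX2 encode abscisic acid 8'-hydroxylases, which start the inactivation of the hormone. ABA8OX2 had 2038 ± 59.0 in the aromatic bulk, compared with 3877 ± 189 in the non-aromatic bulk (SD, n = 4 each, log2 -0.93, limma adjusted p = 4.85e-06). ABA8OX1 averaged 179 ± 29.0 in aromatic-bulk leaves and 388 ± 31.9 in non-aromatic ones, and fell by 1.12 (adjusted p = 8.4e-04). Between the parents ABA8OX2 fell by 1.24 in Pusa 1121 (adjusted p = 8.79e-08). ABA8OX1 did not pass there, with log2 -0.52 (adjusted p = 0.0628), but did without replicate 2 or 3 of Pusa 1121 or replicate 3 of Pusa 1342 (adjusted p from 0.028 to 0.0454).

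CCD7 and CCD8A, carotenoid cleavage dioxygenase genes, were dim. CCD7 passed in neither pair (log2 0.58 in the bulks and -0.23 in the parents). It passed in the bulks without replicate 2 of the non-aromatic bulk (adjusted p = 0.0215, limma). CCD8A had 11.7 ± 10.2 in Pusa 1121 against 75.7 ± 36.2 in Pusa 1342 (SD, n = 4 each), and the difference passed (adjusted p = 0.0257, limma). All Pusa 1121 arrays were under 50 and the size depended on the pseudocount, with a log2 difference of -2.86 at 1, -1.71 at 16 and -3.05 with none. That call was lost without replicate 1 or 4 of Pusa 1121 or replicate 2 or 3 of Pusa 1342 (adjusted p from 0.0607 to 0.0808).

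Other enzymes draw on the same precursor, geranylgeranyl diphosphate, or its derivatives. CHLG, chlorophyll synthase, was higher in the aromatic bulk, at 3145 ± 140 against 2073 ± 105 in the non-aromatic bulk (SD, n = 4 each, log2 0.60, limma adjusted p = 3.18e-05). In Pusa 1121 it was lower, at 3110 ± 63.9 against 3727 ± 186 in Pusa 1342 (log2 -0.26, adjusted p = 0.0127). CHLP, geranylgeranyl reductase, fell by 0.26, CPS1, of gibberellin synthesis, by 0.65, and KS1, of the next gibberellin step, by 0.33 in Pusa 1121. None of CHLP, CPS1 and KS1 passed in the bulks, but CHLP did, as higher, among probe sets with a mean of at least 50 (adjusted p = 0.0479, limma) and with an intensity trend of the prior variance (adjusted p = 0.00639). With only the parents in the fit, CHLG, CPS1 and KS1 no longer passed between them (adjusted p = 0.0568, 0.0703 and 0.0818). The KS1 call was lost without replicate 2 or 3 of Pusa 1121 or replicate 1 or 3 of Pusa 1342 (adjusted p from 0.0503 to 0.0767). HGGT, of tocotrienol synthesis, was dim, with means from 16.4 to 37.7, and passed in neither pair.

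**Figure D3:**
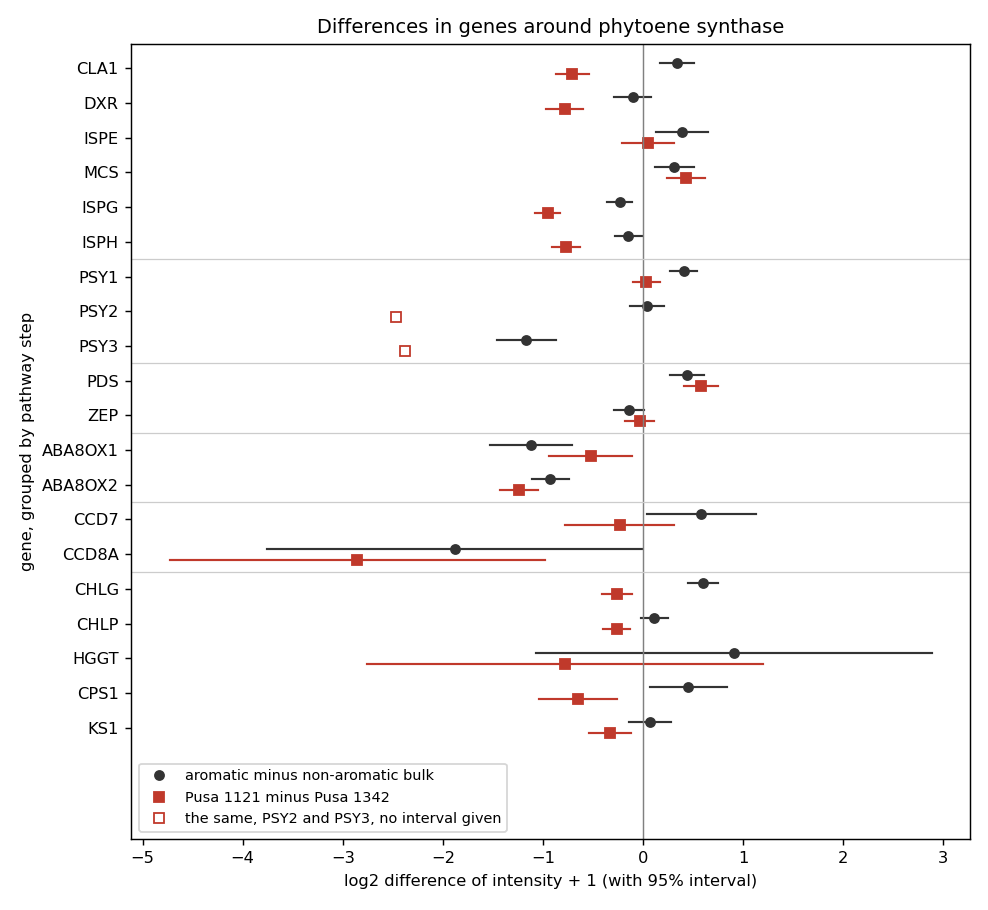
Log2 differences of PSY1, PSY2, PSY3 and 17 other genes, from the MEP pathway at the top through carotenoid steps to other users of geranylgeranyl diphosphate at the bottom; circles are the aromatic minus the non-aromatic bulk, squares Pusa 1121 minus Pusa 1342, lines unadjusted 95% intervals. In the bulks PSY2 is at 0.04 and PSY3 at -1.16; for the parents these are -2.47 and -2.38.

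Genes next to PSY2 and PSY3 on the chromosome were compared through the 10 nearest measured genes on each side in the gene order. Around PSY3, 2 of 20 were higher, 5 were lower and 13 did not pass in the bulks, and around PSY2 the counts were 3, 4 and 13. Over all genes 32.8% were called in the bulks, so these counts were near the background. In the parents the counts were 5 higher, 5 lower and 10 not passing around PSY3 and 4, 6 and 10 around PSY2, where 45.3% of all genes were called.

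The genes directly beside PSY3 did not share its pattern. LOC4347814, the nearest on one side, was higher in the aromatic bulk, at 317 on average against 210 in the non-aromatic bulk (log2 0.58, limma adjusted p = 0.0195). LOC4347812, on the other side, was dim and did not pass in either pair. Of the 20 genes, 4 were called lower on the aromatic side of both pairs and 1 was called higher in both. The lower ones were LOC4347803, LOC4347804 and LOC4347805, which stand in a row on one side of PSY3, and LOC9266097 on the other. For the 3 in a row the log2 differences were -1.03, -0.67 and -0.42 in the bulks and -1.81, -1.45 and -2.90 in the parents, listed in gene order. LOC9266097 had -0.96 in the bulks and -1.06 between Pusa 1121 and Pusa 1342. The higher one, LOC4347821, had 1.16 in the bulks and 0.62 in the parents.

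On each side of PSY2 the nearest measured gene in the gene order was called lower in Pusa 1121, as were 22.8% of all named genes. On one side this was LOC4352844, 12.3 kb away between gene starts. It was a dim probe set with 33.8 in Pusa 1121 against 117 in Pusa 1342 on average (adjusted p = 0.0194, limma). On the other side it was ADF-11, an actin depolymerising factor gene, 108.3 kb away (log2 -1.85, limma adjusted p = 3.54e-10). ADF-11 had 1600 in Pusa 1121 against 5744 in Pusa 1342 on average. In the bulks it differed little, at 2771 in the aromatic bulk and 2362 in its non-aromatic counterpart (log2 0.23, adjusted p = 0.0463, limma). DOHH-B, the next gene beyond LOC4352844 and 20.9 kb from PSY2, fell by 1.44 in Pusa 1121 and by 0.48 in the aromatic bulk. Among the 20 genes DOHH-B, LOC4352856 and LOC4352857 were called lower on the aromatic side of both pairs, and CSase and LOC4352860 were called higher in both. For these calls in both pairs the share over all genes is likewise not given.

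**Figure D4:**
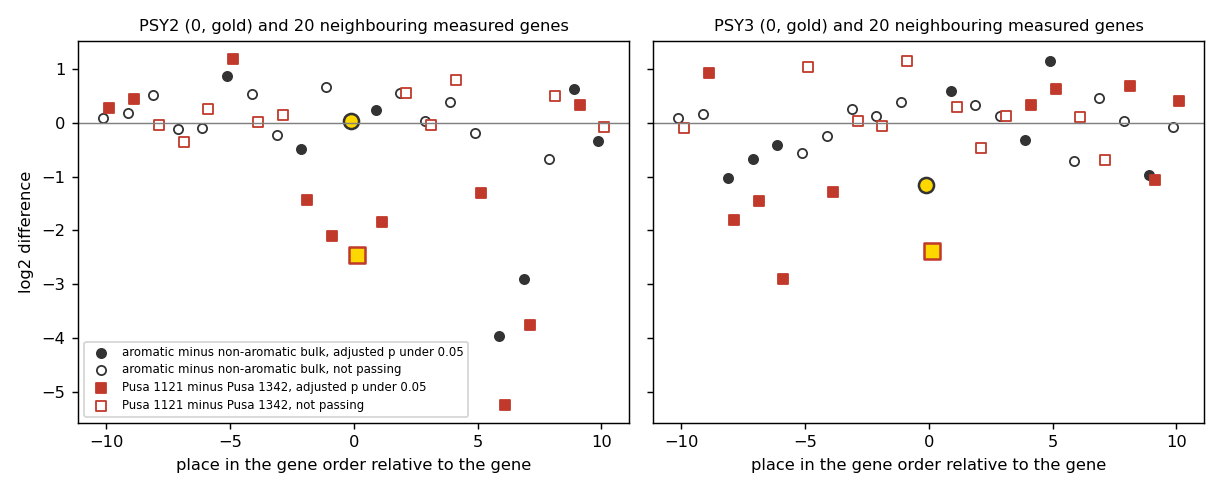
Log2 differences of PSY2 (left), PSY3 (right) and the 10 nearest measured genes on each side, by place in the gene order. PSY2 and PSY3 are in gold at place 0, a fill that shows no call. Circles are the aromatic minus the non-aromatic bulk and squares Pusa 1121 minus Pusa 1342. Neighbours are filled where the adjusted p was under 0.05. Of 20 neighbours 7 were called in the bulks around each gene.

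The genes with the profile most like each member over the 16 arrays were ranked by Pearson correlation of log2 values among 18192 probe sets with 1 gene and a mean of at least 50. The arrays share 4 groups, so a high correlation reflects mainly the relative spacing of 4 group means. In all, 229 probe sets reached 0.95 for PSY2 and 189 for PSY3. Closest to PSY2 were LOC4332377 (r = 0.994), LOC4333970, LOC4342277, LOC4351617 and ALDP (r = 0.992), a plastid aldolase gene. LOC4332377 had 4709 in the aromatic bulk and 4305 in its non-aromatic counterpart on average, against 496 in Pusa 1121 and 5162 in Pusa 1342.

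Closest to PSY3 were LOC4327388 (r = 0.992), LOC4326356, ABCC13, LOC4333917 and ABIL1 (r = 0.984). LOC4327388 had 3649 in the aromatic bulk and 8262 in its non-aromatic counterpart on average, against 2688 in Pusa 1121 and 12277 in Pusa 1342. ABCC13, an ABC transporter gene also listed as LPA2, had 647 in the aromatic bulk and 1267 in its non-aromatic counterpart. ABIL1, also listed as PP2C06, had 1029 in the aromatic bulk and 2165 in its non-aromatic counterpart.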

How the data were processed

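Leaf RNA of 16 samples was labelled with biotin and hybridised to Affymetrix rice arrays. The authors deposited 1 intensity per probe set and array, and GCOS 1.2 and RMA are listed per the submitters' processing notes, without saying which did what. The values are linear and have the same quantiles on every array, as read from the table, so a shift of all genes in 1 group cannot be seen. Detection calls and probe sequences were not used here, and the number of arrays limits the precision.

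After 187 controls were left out, 57194 probe sets were fitted as log2(intensity + 1) with limma 3.58.1 in R 4.3.3 (a mean per group for all 4 groups together, residual degrees of freedom 12, eBayes, two-sided). Benjamini-Hochberg adjustment ran over all probe sets, with a threshold of 0.05. The steps were tested on simulated data. Names came from the platform annotation through the NCBI gene table of assembly ASM3414082v1, used for names, chromosome and gene order. Of all probe sets 22436 had 1 gene, 95 had several and 34663 had none listed here. Genes with several probe sets were read through the one with the highest mean. Of 67 list entries, 20 matched 1 gene, 5 were left out because the alias belongs to another gene or enzyme or repeats one, and 42 had no match.

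Members and lists were chosen with earlier results of these data known. The rule for named genes takes all probe sets of PSY1, PSY2 and PSY3, up to 3 list genes per role and pair by lowest adjusted p, and the 5 most similar profiles. ISPE, HGGT, KS1 and the chromosomal neighbours fall outside it and were added after their values were seen.

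Alternatives changed the pseudocount, the filter on dim probe sets, the normalization, the samples fitted, the prior variance, the replicate block, the probe set rule and the arrays included. A p-value that misses the threshold does not show that groups were equal.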

Additional observations from a re-analysis of the deposited data

Results flagged for a closer look

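Among 76 groups of 4 arrays of the named genes, 5 held an array far from the others, and chance gives about 1 in 20. In the dimmest PSY1 probe set replicate 3 of the aromatic bulk was at 436.9, the others at 241.1 to 261.1. MCS had 5323 on replicate 1 of the non-aromatic bulk, with the others from 4847 to 4919. ISPG had 19768 on replicate 4 of Pusa 1342, with the others from 20898 to 20978. CCD7 had 112.8 on replicate 2 of the non-aromatic bulk, with the others from 53.95 to 62.64. CHLP had 27340 on replicate 4 of the aromatic bulk, with the others from 25835 to 26063. No group of PSY2 or PSY3 held such an array.

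The parental difference was tested against the bulk difference in limma for the 18 list genes around phytoene synthase. It was lower by more than the spread between arrays for PSY1 (log2 -0.38, adjusted p = 0.00741), CLA1 (-1.05, 1.01e-05), DXR (-0.68, 9.94e-04) and ISPG (-0.72, 2.51e-05), where each second number is the adjusted p. The same held for ISPH (-0.62, 1.70e-04), CHLG (-0.86, 2.34e-05), CHLP (-0.38, 0.00715) and CPS1 (-1.10, 0.00659). The rest of the list did not pass: ISPE, MCS, PDS, ZEP, CCD7, CCD8A, ABA8OX1, ABA8OX2, HGGT and KS1. Of these MCS, PDS, ZEP and ABA8OX1 had positive values and the others negative ones. For PSY1 a second probe set gave -0.64 (adjusted p = 0.00406) and the third -0.94 without passing (adjusted p = 0.0922). Over all genes 33.8% passed this test. For PSY2 and PSY3 it was not made, since the parental values chose them.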

How the results depend on the processing

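The bulk results of PSY2 and PSY3 kept their side of the threshold under all 16 alternatives each. PSY2, which passed under none, changed sign within its error. Among the 16 was the exact permutation test, whose p was not adjusted over probe sets and so is not comparable with the others. Leaving out 1 array at a time gave PSY2 log2 differences from -0.01 to 0.06 and PSY3 differences from -1.23 to -1.08 in the bulks, and -2.50 to -2.43 and -2.47 to -2.27 in the parents. The count of list genes lower in the bulks was 5, in place of 3, among probe sets with a mean of at least 50, with an intensity trend of the prior variance, and with probe sets of a gene averaged. The filter changed both the probe sets adjusted over and the prior variance, and the cause was not tested for any of these settings. With the filter and with the trend ISPH and ZEP passed as lower (adjusted p from 0.00116 to 0.0374) and CHLP as higher (0.0479 and 0.00639), so that 7 list genes were higher in place of 6. With only the compared groups in the fit MCS (0.0959) and ISPG (0.0837) lost their bulk calls and CHLG (0.0568), CPS1 (0.0703) and KS1 (0.0818) their parental calls, where values are adjusted p. This left 5 list genes higher and 2 lower in the bulks, and 7 lower between the parents. Leaving out 1 bulk array at a time left 4 to 5 list genes higher and 3 lower in the bulks.

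The replicate numbers did not pair the arrays: deviations of same-numbered arrays correlated from -0.0166 to 0.0308, and 4 of 16 arrays matched their own number best. With the replicate block 9636 probe sets were called in the bulks, against 10634 without it, and 14040 in the parents, against 14777. PSY3 kept log2 -1.16 (adjusted p = 5.57e-05) and PSY2 0.04 (adjusted p = 0.808), and ISPE (0.0705) and CCD8A (0.0572) lost their calls. Small differences of dim genes such as CCD8A and HGGT could not be seen, since their residual SDs on the log2 scale were 1.28 and 1.35. The median residual SD was 0.691 over all probe sets and 0.223 in those with a mean of at least 50.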
